A study of Homo sapiens with 12 samples.

Results

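The 568 regions described here were called by H3K4me3 CUT&RUN in both libraries of EPZ011989-treated MKL-1 cells and in no library of vehicle-treated cells. They were chosen by overlapping the peak lists. Stretches of chromosomes 1 to 22 inside a peak of both EPZ011989 H3K4me3 libraries were kept when they were 300 bp or longer and overlapped no peak of either vehicle H3K4me3 library. They make up 3.3% of the 17238 stretches of that length shared by the 2 EPZ011989 libraries, and are called EPZ011989-only intervals. The same rule in the other direction gave 506 vehicle-only intervals, 2.88% of 17573. Because the intervals were selected on H3K4me3, their H3K4me3 values are given as a description and were not tested. The H3K27me3 libraries, gene positions and promoter sequences played no part in the choice.

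MKL-1 is an established Merkel cell carcinoma line. Cultures grew for 6 days in 1% ethanol, the vehicle, or with 3 µM EPZ011989 dissolved to the same 1% ethanol, and were moved to larger dishes with fresh medium on day 3. Each culture was divided among an antibody to H3K27me3, an antibody to H3K4me3 and control IgG, which gave 12 libraries in 6 groups of 2 replicates. All values come from 1 cell line treated in duplicate, and the replicates differ by separate treatment and separate libraries only. In bulk chromatin, a mark on few cells and a weak mark on many cells cannot be told apart.

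CUT&RUN uses an antibody on permeabilised cells to tether a nuclease that releases the DNA under the bound chromatin. H3K4me3 is written by the SET1 and MLL methyltransferases around active and poised transcription start sites, mostly in CpG-rich promoters. H3K27me3 is written by EZH2, the catalytic subunit of Polycomb repressive complex 2, and covers developmental genes that a cell type keeps silent. EPZ011989 blocks EZH2, and promoters that carry H3K27me3 can hold H3K4me3 as well, a state called bivalent.

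A start site of the RefSeq promoter table lay inside 101 of the 554 intervals on the chromosomes with start sites used here. The promoters of the 6 longest of the 101 are shown, since their start sites came under H3K4me3 peaks of EPZ011989-treated cells and not of vehicle-treated cells. The intervals contain 5 of the 6 windows whole, and 100 of the 300 bases at RASGRP2. Each runs 5′ to 3′ on the gene's strand, from 250 bases before the start site through the first 50 bases after it, in the GRCh38.p14 build, and capitals mark CG dinucleotides. All 6 genes lie on the minus strand. RASGRP2, an exchange factor for the small GTPase Rap1, has its window at chr11:64745299-64745598. The window of TEAD2, a transcription factor of the Hippo pathway, is chr19:49362367-49362666. That of SH3PXD2A, a scaffold protein of podosomes, is chr10:103855527-103855826, and that of PLPPR3, a membrane protein related to lipid phosphatases, is chr19:821906-822205. YPEL4, of the yippee-like family, has the window chr11:57649863-57650162, and RARG, retinoic acid receptor gamma, has chr12:53232160-53232459.
RASGRP2: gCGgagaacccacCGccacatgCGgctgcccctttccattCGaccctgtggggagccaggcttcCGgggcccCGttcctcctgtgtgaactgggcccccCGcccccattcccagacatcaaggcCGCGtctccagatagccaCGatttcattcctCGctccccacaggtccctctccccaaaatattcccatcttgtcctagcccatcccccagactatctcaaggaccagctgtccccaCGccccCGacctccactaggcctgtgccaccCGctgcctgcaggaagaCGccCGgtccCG
TEAD2: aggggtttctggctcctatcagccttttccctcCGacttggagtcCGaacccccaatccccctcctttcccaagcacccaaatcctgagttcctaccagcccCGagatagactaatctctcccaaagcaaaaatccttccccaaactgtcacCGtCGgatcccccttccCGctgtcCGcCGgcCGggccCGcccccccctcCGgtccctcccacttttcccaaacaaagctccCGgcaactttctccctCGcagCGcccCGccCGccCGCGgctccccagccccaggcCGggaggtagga
SH3PXD2A: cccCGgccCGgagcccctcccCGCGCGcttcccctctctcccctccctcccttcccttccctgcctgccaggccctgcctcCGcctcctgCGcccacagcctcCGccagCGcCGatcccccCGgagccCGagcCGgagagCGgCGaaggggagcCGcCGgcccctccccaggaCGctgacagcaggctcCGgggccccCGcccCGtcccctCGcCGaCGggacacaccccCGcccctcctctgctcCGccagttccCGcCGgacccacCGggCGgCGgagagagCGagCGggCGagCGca
PLPPR3: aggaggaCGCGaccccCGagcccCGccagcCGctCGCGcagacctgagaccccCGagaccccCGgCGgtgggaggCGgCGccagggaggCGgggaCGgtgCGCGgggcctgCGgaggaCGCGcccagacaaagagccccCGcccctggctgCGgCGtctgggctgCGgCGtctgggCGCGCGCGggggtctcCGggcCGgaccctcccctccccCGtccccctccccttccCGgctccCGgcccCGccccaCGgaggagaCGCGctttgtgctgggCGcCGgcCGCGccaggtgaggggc
YPEL4: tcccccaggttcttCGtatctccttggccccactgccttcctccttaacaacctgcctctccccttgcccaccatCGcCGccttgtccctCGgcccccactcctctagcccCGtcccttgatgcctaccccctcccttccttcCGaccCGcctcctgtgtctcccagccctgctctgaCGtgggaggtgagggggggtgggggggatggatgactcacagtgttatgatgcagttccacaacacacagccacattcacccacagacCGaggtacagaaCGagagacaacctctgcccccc
RARG: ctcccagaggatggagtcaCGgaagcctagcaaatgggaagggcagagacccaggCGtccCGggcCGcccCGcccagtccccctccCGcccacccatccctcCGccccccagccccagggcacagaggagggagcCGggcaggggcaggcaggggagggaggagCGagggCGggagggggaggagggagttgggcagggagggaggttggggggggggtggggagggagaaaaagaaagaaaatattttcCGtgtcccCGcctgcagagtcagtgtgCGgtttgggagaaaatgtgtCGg
The 6 windows held 17, 19, 35, 41, 10 and 14 CG in the order shown, and vehicle H3K27me3 peaks covered all 6 intervals in both libraries. Over the 115 start sites inside EPZ011989-only intervals, which belong to 113 genes, the median was 29 CG per 300 bases and 70.7% G or C. Over all 33725 listed start sites of these chromosomes the medians were 14 CG and 58.7%, and over the 15676 start sites in the other shared EPZ011989 intervals 27 CG and 66.7%. The 11 start sites in vehicle-only intervals had a median of 7 CG. The promoters in EPZ011989-only intervals were thus close in CG number to those in the other shared EPZ011989 intervals, and held more CG than the typical listed promoter.

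Short motifs were searched on both strands of the same windows. The GC box GGGCGG, a letter string bound by SP factors, was in 80% of the 115 windows, in 73.4% of those in the other shared intervals and in 45.0% of all windows. CCAAT was in 18.3%, 34.2% and 34.4%, in the same order. The TATA box string TATAAA was in 13.9% (16 windows), 4.62% and 11.6%, and the E-box CACGTG in 9.57%, 9.74% and 7.18%. GGGCGG holds a CG and so moves with CG number. TATAAA was found at GSC, SOX21, SALL3, COL6A2, KCNK1, EDN1 and SGK1, among others. Windows of divergent start sites overlap, as at SALL3, SOX21 and PROK2, so the same string can be counted in both windows. These counts describe letters, not bound sites.

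The intervals were short. Their median length was 452 bp (quartiles 362.75 and 626.5 bp, longest 3467 bp), against 1890 bp for the other shared EPZ011989 intervals and 401.5 bp for the vehicle-only ones. At the length limit, 3 intervals measured exactly 300 bp, and the longest of the 257 shorter stretches that were left out measured 299, 298 and 298 bp. Of the 568, 43 reached 1 kb, compared with 7 of the vehicle-only intervals. The peak of EPZ011989 replicate 2 was the shorter one at 427 intervals, and at 295 (51.9%) the interval was that whole peak. Replicate 2 therefore set the edges of most intervals.

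Vehicle H3K27me3 lay over most EPZ011989-only intervals. In vehicle replicates 1 and 2, 380 (66.9%, exact 95% Clopper-Pearson interval 62.9 to 70.8) and 388 (68.3%, 64.3 to 72.1) of the 568 had at least 50% of their bases inside H3K27me3 peaks. The corresponding shares were 21.8% and 25.6% of the 16670 other shared intervals, and 6.13% and 6.72% of the vehicle-only intervals. These confidence intervals cover counting error only, since stretches measured in 1 library are not replicates. Cover was nearly always whole or absent: 364 and 376 intervals lay entirely inside H3K27me3 peaks.

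With EPZ011989, H3K27me3 peaks were almost gone from these intervals. Vehicle H3K27me3 peaks covered 224 and 229 kb of the 311 kb in the intervals (226 ± 3.79 kb, SD, n = 2), and EPZ011989 peaks covered 0.234 and 0 kb (0.117 ± 0.165 kb, SD, n = 2). The difference was 226 kb, and the groups did not overlap. The exact two-sided permutation test gave p = 0.333, which is the smallest value that 6 labellings of 2 and 2 libraries allow, so this design cannot pass 0.05. The loss ran over the whole H3K27me3 list: 40186 and 43634 peaks in vehicle stood against 361 and 22 with EPZ011989. Background fragments per base in the H3K27me3 lists were 1.12 and 1.63 in vehicle and 0.373 and 0.148 with EPZ011989. The part of library depth in the loss was not tested.

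Counted per interval, 378 of the 568 (66.5%) had a H3K27me3 peak base in each vehicle library but none in either library from EPZ011989-treated cells. The background is 31.4% of all 17238 shared EPZ011989 intervals, and 24 of the 506 vehicle-only intervals met the same rule. No shared interval met the reverse rule. With only 361 and 22 H3K27me3 peaks left under EPZ011989, these counts nearly restate vehicle cover, and the reverse rule had little to find. The single EPZ011989-only interval with any H3K27me3 base under EPZ011989 was at COL6A2, a collagen VI chain, where 234 of 634 bp were covered in replicate 1 and 0 in replicate 2. No interval overlapped an IgG peak.

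**Figure D1:**
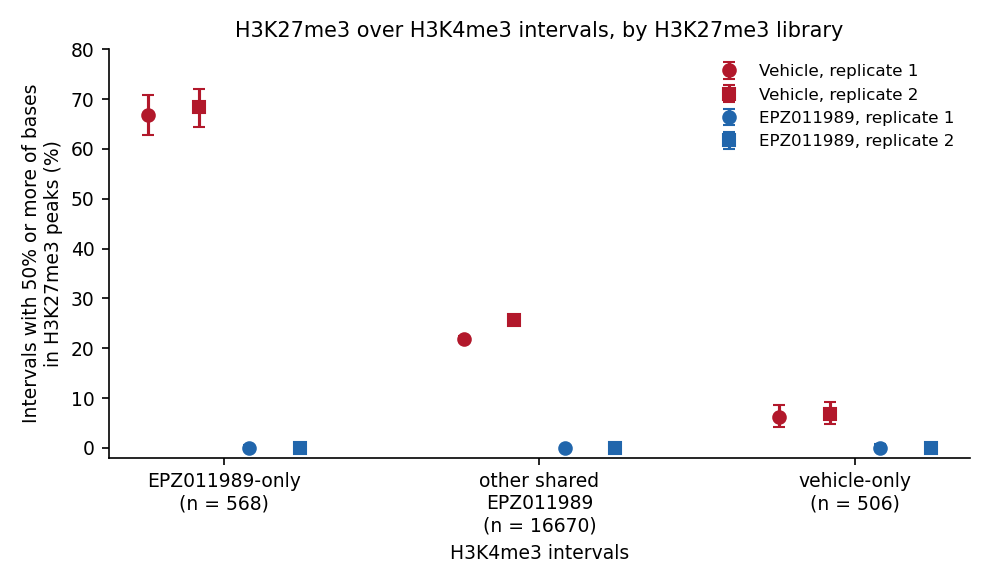
Share of H3K4me3 intervals (y axis, percent) with at least 50% of their bases inside H3K27me3 peaks, for each of the 4 H3K27me3 libraries (circles replicate 1, squares replicate 2) and 3 sets of intervals (x axis), with exact 95% Clopper-Pearson bars. Vehicle libraries stand at 66.9% and 68.3% over EPZ011989-only intervals, at 21.8% and 25.6% over the other shared ones and at 6.13% and 6.72% over vehicle-only ones, and EPZ011989 libraries stand at or near 0 over all 3.

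For the rest of the description the intervals were split by vehicle H3K27me3. In the covered class, at least 50% of the bases lay in H3K27me3 peaks of both vehicle libraries; it holds 373 intervals (65.7%). The uncovered class, with no H3K27me3 base in either vehicle library, holds 164 (28.9%), and the remaining 31 lay between. The same split gave 3409, 9533 and 3728 of the other shared intervals, so 20.4% of those were covered. Of the vehicle-only intervals, 22 (4.35%) were covered and 451 had no base.

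The 2 classes differed in place. Of the 373 covered intervals, 264 (70.8%) lay within 2500 bp of a gene end, 69 inside a gene farther from its ends and 40 between genes. Of the 164 uncovered ones, 58 (35.4%), 83 and 23 did. Leaving out the 14 intervals on chromosome 8, where start sites were not used here, a listed start site lay inside 98 of 361 covered intervals (27.1%) and 1 of 162 uncovered ones. The gene table gives no strand, so gene ends here include both the start and the finish of a gene, while the start sites come from the promoter table. Over all 568, 336 (59.2%) were at a gene end, against 77.1% of the other shared intervals and 20.6% of the vehicle-only ones. Again without chromosome 8, a listed start site lay in 61.2% of the other shared intervals, 18.2% of the EPZ011989-only ones and 2.08% of the vehicle-only ones. The promoter table is not complete, so these shares are of listed start sites. The covered share was lower farther from gene ends: 108 of the 121 intervals that reached a gene end were covered, 156 of 215 at up to 2500 bp, 66 of 136 at up to 10 kb, and 43 of 96 farther away.

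Longer intervals were more often covered. Of the 215 intervals under 400 bp, 104 (48.4%) were covered. The share was 70.1% of 197 from 400 to under 600 bp, 83.2% of 113 from 600 to under 1000 bp and 86.0% of 43 at 1000 bp or more. In the vehicle-only set the same 4 length classes had 13 of 249, 8 of 192, 1 of 58 and 0 of 7 covered. The covered class had a median of 506 bp and the uncovered class 378.5 bp.

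**Figure D2:**
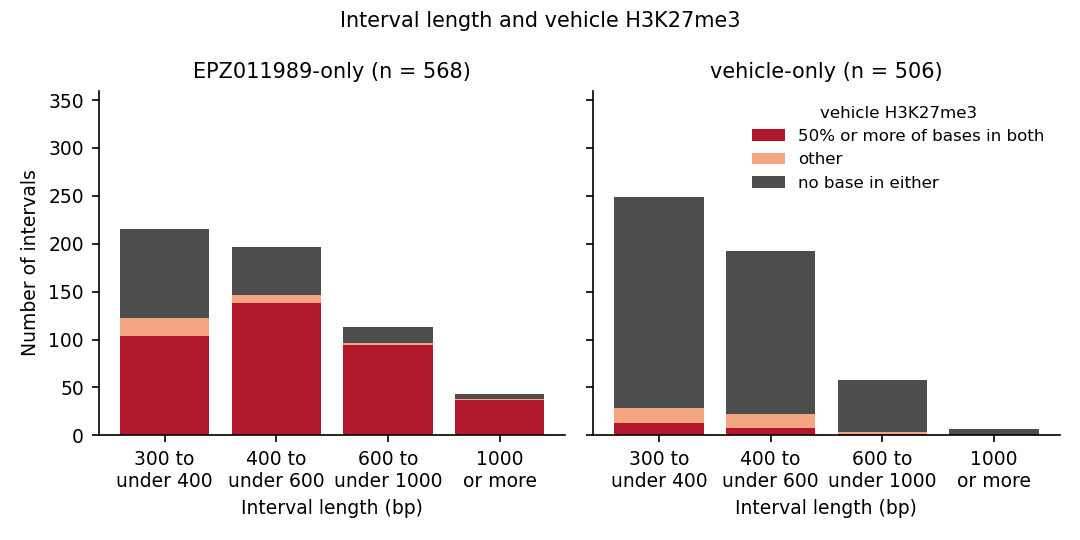
Number of intervals (y axis) by length in bp (x axis) for EPZ011989-only (left) and vehicle-only (right) intervals, coloured by vehicle H3K27me3. The covered part of the EPZ011989-only bars grows from 104 of 215 in the shortest class to 37 of 43 in the longest, and 22 of the 506 vehicle-only intervals are covered.

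Uncovered intervals lay nearer than covered ones to H3K4me3 that vehicle cells already had. Their median distance to the nearest vehicle H3K4me3 peak was 1219.5 bp, with 77 of 164 within 1 kb and 45 beyond 10 kb. Covered intervals had a median of 13554 bp, with 61 of 373 within 1 kb and 202 beyond 10 kb. Over all 568 the distance ran from 2 bp to 1580565 bp with a median of 7400.5 bp. Of these, 144 (25.4%) lay within 1 kb, 165 from 1 to 10 kb, 259 (45.6%) beyond 10 kb and 56 beyond 100 kb. The most isolated interval was at the CDH8 end. The rule itself keeps intervals off vehicle peaks, so these distances are a description.

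**Figure D3:**
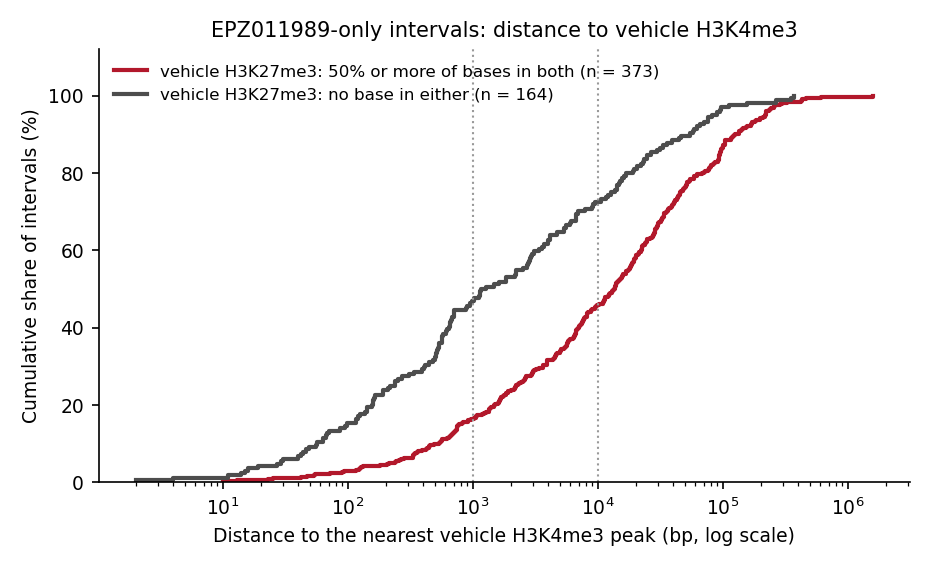
Cumulative share of EPZ011989-only intervals (y axis, percent) by distance to the nearest vehicle H3K4me3 peak (x axis, bp, log scale) for the 373 covered and the 164 uncovered intervals. The curve of the uncovered class lies to the left, with a median of 1219.5 bp against 13554 bp, and dotted lines mark 1 and 10 kb.

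The same split showed at the genes. EPZ011989-only intervals lay at the ends of 311 protein-coding genes. Of these genes, 155 (49.8%) had no vehicle H3K4me3 peak within 2500 bp of either end, 133 (42.8%) had one in both vehicle libraries, and 23 in 1 library. For the 243 genes with a covered interval, 150 (61.7%) had none. Of the 54 genes with an uncovered interval, 2 had none and 52 had a vehicle peak in both libraries. Among all 19126 protein-coding genes, 32.6% had no vehicle peak at an end. Since the rule keeps intervals off vehicle peaks, it favours genes without one, and these shares are a description. Of the 113 genes with a start site inside an interval, 71 had no other listed start site, and the rule keeps that one off vehicle peaks. Of the other 42, with 2 or more listed start sites, 20 had another one under a vehicle peak and 22 had none. The 20 include FGFR2, CAV1, SGK1, SH3PXD2A, SMARCD3 and MYT1L.

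The H3K4me3 peaks behind the intervals were low. Each list fits a single background level, from which the fragments stacked at a peak's summit can be read back as whole numbers (largest gap to a whole number 0.000377). The background was 1.48 and 1.24 fragments per base in EPZ011989 replicates 1 and 2 and 0.572 and 0.857 in vehicle, so this stand-in for depth was higher in the EPZ011989 H3K4me3 libraries. Median summits at the intervals were 17 and 10 fragments, 11.5 and 8.04 times background. Over all peaks of those libraries the medians were 65 and 40 fragments. Ranked by fold, the median interval stood 69.3% and 76.6% of the way down its list. At 461 intervals (81.2%) the summit stood higher over background in replicate 1 than in replicate 2.

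Some of the tallest values belong to neighbouring H3K4me3. At 459 intervals neither EPZ011989 peak touched a vehicle peak, and these are called apart. At the other 109, an EPZ011989 peak that contains the interval also reached over a vehicle peak, in replicate 1 at 88 of them, in replicate 2 at 22 and in both at 1. Among these 109, the summit of the replicate 1 peak lay outside the interval at 79. Among the apart intervals, it lay outside at 46 in replicate 1 and at 37 in replicate 2. Summits given for an interval are those of the peaks that contain it, also where they lie outside it. Of the apart intervals, 322 (70.2%) were covered by vehicle H3K27me3 and 111 uncovered. Of the 109 beside a vehicle peak, 51 (46.8%) were covered and 53 uncovered.

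Depth limits what the absence of a vehicle call means. The lowest summit called in the vehicle lists was 4 and 5 fragments, 6.99 and 5.83 times background, whereas the EPZ011989 lists reached down to 4.74 and 4.82 times. Scaled to the background of both vehicle libraries, the 2 summits of 299 of the 459 apart intervals (65.1%) would still reach the lowest vehicle call, and those of 31 (6.75%) would reach it with a factor of 2 to spare. Of the vehicle-only intervals, 433 were apart from EPZ011989 peaks. All 433 reached the EPZ011989 limit when scaled, and 203 did so with that factor. That all 433 reached it was fixed in advance, since the lowest vehicle calls stand higher over background than the lowest EPZ011989 calls. Among the 299 that reached the limit, 247 (82.6%) were covered by vehicle H3K27me3, and among the 160 that did not, 75 (46.9%) were. Median summits were 20 and 12 fragments in the former and 11 and 8 in the latter. A peak that vehicle cells hold but that went uncalled at the lower background cannot be told apart from one they lack for these 160 intervals. Reaching the limit does not settle this for the 299 either, since few stand far above the lowest call. The 109 intervals beside vehicle peaks are not part of these counts.

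**Figure D4:**
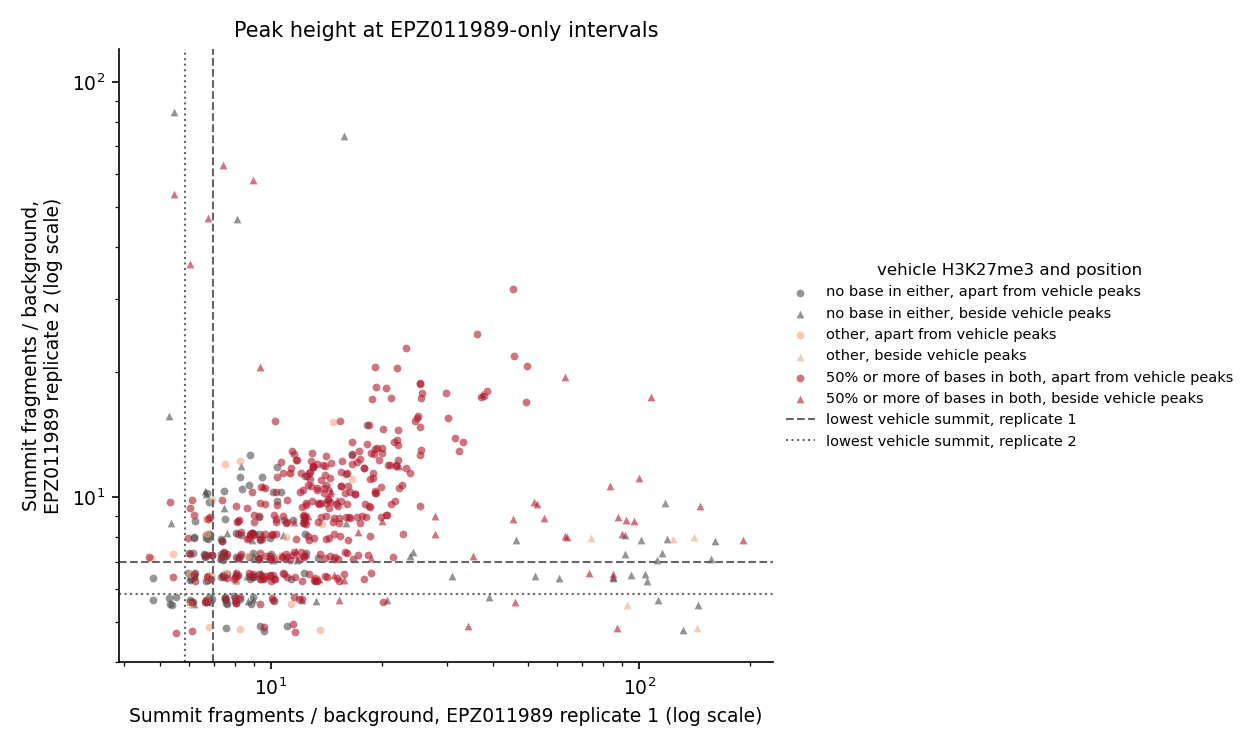
Summit fragments divided by background in EPZ011989 replicate 1 (x axis) and replicate 2 (y axis), both on log scales, for the 568 intervals, coloured by vehicle H3K27me3, with circles for the 459 apart intervals and triangles for the 109 beside vehicle peaks, with slight jitter. Lines mark the lowest summit called in each vehicle list, 6.99 and 5.83 times background; most points lie near these lines, and no uncovered circle had more than 27 fragments in replicate 1.

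The count depends on each library. Dropping EPZ011989 replicate 1 gave 2699 intervals and dropping replicate 2 gave 2913, of which 27.1% and 34.9% were covered by vehicle H3K27me3. Without vehicle replicate 1 there were 832, with 59.3% covered, and without vehicle replicate 2 there were 909, with 56.2%. A depth-matched summit limit, a choice made after seeing the data, was also applied to the lists of the shared peaks only. Applied to the EPZ011989 lists, it left 366 EPZ011989-only intervals, 77.9% of them covered. Applied to the vehicle lists, it left 499 vehicle-only intervals, 4.21% of them covered. With the matched limit in all 4 lists, also used to remove intervals, there were 371 EPZ011989-only intervals, 77.6% of them covered, and 858 vehicle-only ones, 4.31% covered.

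Homeobox and other developmental transcription factors, which are textbook Polycomb targets, had EPZ011989-only intervals at 22 of 274 genes (8.03%), with 24 intervals. Vehicle H3K27me3 covered 23 of the 24, and the other was partly covered. Of all 336 EPZ011989-only intervals at a gene end, 264 were covered. The median length of the 24 was 515 bp, and 19 were apart from vehicle peaks. Of the 22 genes, 14 had no vehicle H3K4me3 peak at an end and 7 had one in both vehicle libraries. Of all 274 genes, 107 had none and 159 had one in both. As a scale, 311 of 19126 protein-coding genes (1.63%) had an interval at an end and 78 (0.408%) a vehicle-only interval. Counts over the lists are a description, and no test was made of them.

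Among 39 HOX genes, which pattern the body axis, 3 had an interval. At HOXC8, chr12:54008986-54009582, the summits were 45 and 22 fragments in EPZ011989 replicates 1 and 2. At HOXC11, chr12:53974098-53974914, beside the long non-coding RNA HOTAIR, they were 32 and 17. Both intervals lay in the same vehicle H3K27me3 region of 98190 bp that spans the HOXC genes. The interval at HOXA13, chr7:27196404-27196793, was the narrow replicate 2 peak of 390 bp with 12 fragments, beneath a 5765 bp replicate 1 peak that reached a vehicle peak.

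Of 111 other homeobox genes, 12 had an interval (10.8%), all covered by vehicle H3K27me3. GSC, the goosecoid factor of the embryonic organizer, had its start site inside an interval of 520 bp with summits of 48 and 17, and no vehicle H3K4me3 peak within 166019 bp. BARX2 had summits of 32 and 22 over 979 bp. At EN1, VAX1, LBX1, EVX1 and IRX4 the summits were lower, 11 to 15 fragments in replicate 1 and 7 to 12 in replicate 2. ALX4 had 27 and 10 and HMX2 23 and 8, and the intervals of GBX1 and LHX2 were beside vehicle peaks.

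Of 86 other developmental transcription factors, 5 had intervals. GATA2, a zinc finger factor of blood and neural cells, had 2 in a single H3K27me3 region of 26397 bp, one of 883 bp with summits of 35 and 28 and one of 366 bp with 12 and 11. SOX21, a neural SOX factor, also had 2, and the longer of 1172 bp held its start site and had summits of 55 and 22. SALL3 and TFAP2E had their start sites inside intervals with summits of 18 and 11, and 15 and 13. FOXJ1, the master factor of motile cilia, was the partly covered case, with 320 of 515 bp in H3K27me3 in vehicle replicate 1 and 0 in replicate 2. Among 38 neurogenic genes 2 had intervals. NEUROG3, a proneural factor, had summits of 13 and 13, and at BHLHE22, a factor of neuronal identity, the 1616 bp replicate 2 peak of 13 fragments lay under a 7401 bp replicate 1 peak.

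Signalling lists held 6 such genes. Of 50 WNT pathway genes 3 had intervals: WNT1, a ligand, with summits of 20 and 8 beside a vehicle peak, SFRP4, a secreted antagonist, with 18 and 11 over its start site, and DKKL1. The DKKL1 interval, 1492 bp at chr19:49361578-49363069, also holds the TEAD2 start site shown above, and its summits were 19 and 14. CHRD, the BMP antagonist chordin, was the one gene of 54 in the BMP, TGF-beta and hedgehog list, with 38 and 22 over its start site. Of 45 FGF and receptor tyrosine kinase genes, FGFR2 and KDR had intervals. KDR, the VEGF receptor of endothelium, had its start site in 363 bp with 20 and 14 fragments, and its nearest vehicle H3K4me3 peak was 219635 bp away.

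Channel and neuronal adhesion genes gave 10 intervals, all covered by vehicle H3K27me3. Of 67 voltage-gated and potassium channel genes 6 had one, among them CACNA1G, CACNA1H, CACNG2 and KCNA6. At CACNA1H, a subunit of a T-type calcium channel, the interval of 1059 bp had summits of 15 and 9, and at KCNA6, a potassium channel, the interval of 571 bp held the start site and had 18 and 9. Of 52 axon guidance and cadherin genes 4 had one, and none of the 4 had a vehicle H3K4me3 peak at an end. ROBO2, a receptor for SLIT guidance cues, had summits of 31 and 15, NTN1, the guidance cue netrin-1, 16 and 11, CDH8 15 and 10 and CDH13 18 and 8. The CDH8 interval was 826 bp long with a vehicle H3K4me3 peak no nearer than 1580565 bp.

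Immune lists held 4. Of 22 genes of HLA class I presentation, HLA-E, which presents leader peptides to natural killer receptors, had an interval with summits of 11 and 7 and no vehicle H3K27me3, 899 bp from a vehicle H3K4me3 peak. None of 16 class II genes had one, and 14 of those 16 had no vehicle H3K4me3 peak at an end either. Of 37 natural killer and checkpoint ligands, RAET1G, a ligand of the activating receptor NKG2D, had its start site in a fully covered interval of 764 bp with summits of 32 and 17. Of 53 interferon and chemokine genes, ISG15, a ubiquitin-like interferon product, had 30 and 7 over its start site, and CCL17, a chemokine, 13 and 10. Both were covered.

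The Polycomb list had the largest share, 4 of 35, and its intervals were mixed. RING1, a ubiquitin ligase of Polycomb repressive complex 1, had summits of 29 and 16 over 649 covered bp. The interval at CBX8, a chromodomain subunit of that complex, had 0 and 654 of 654 bp covered in the 2 vehicle libraries. The interval at PCGF2 and its neighbour CISD3 had no H3K27me3. All 4 Polycomb genes had a vehicle H3K4me3 peak at an end in both libraries.

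Cell type lists gave 0 to 2 genes each. No gene of the 36 Merkel cell and neuroendocrine, 30 keratinocyte, 24 germline or 28 housekeeping genes had an interval. The share over all protein-coding genes was 1.63%, and in lists of this size 0 or 1 gene is close to it. The rule also keeps intervals off vehicle peaks. Both vehicle libraries had a H3K4me3 peak at an end of 32 of the 36 Merkel cell and neuroendocrine and 28 of the 28 housekeeping genes. For keratinocyte and germline genes the counts were 5 of 30 and 6 of 24. COL6A2 was the one of 26 fibroblast genes, KDR and NOS3 the 2 of 21 endothelial genes, RASGRP2 the one of 33 lymphoid and myeloid genes and MYL3 the one of 31 skeletal muscle genes. DIO3, the deiodinase of an imprinted cluster, was the one of 25 imprinted genes, with 23 and 11 fragments over 1019 covered bp. CCND1, cyclin D1, was the one of 37 genes in the list of cell cycle inhibitors and p53 targets. Its summits were 22 and 10 fragments, in an H3K27me3 region of 334344 bp. Vehicle-only intervals lay at 2 list genes, TFAP2A and MYMK.

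**Figure D5:**
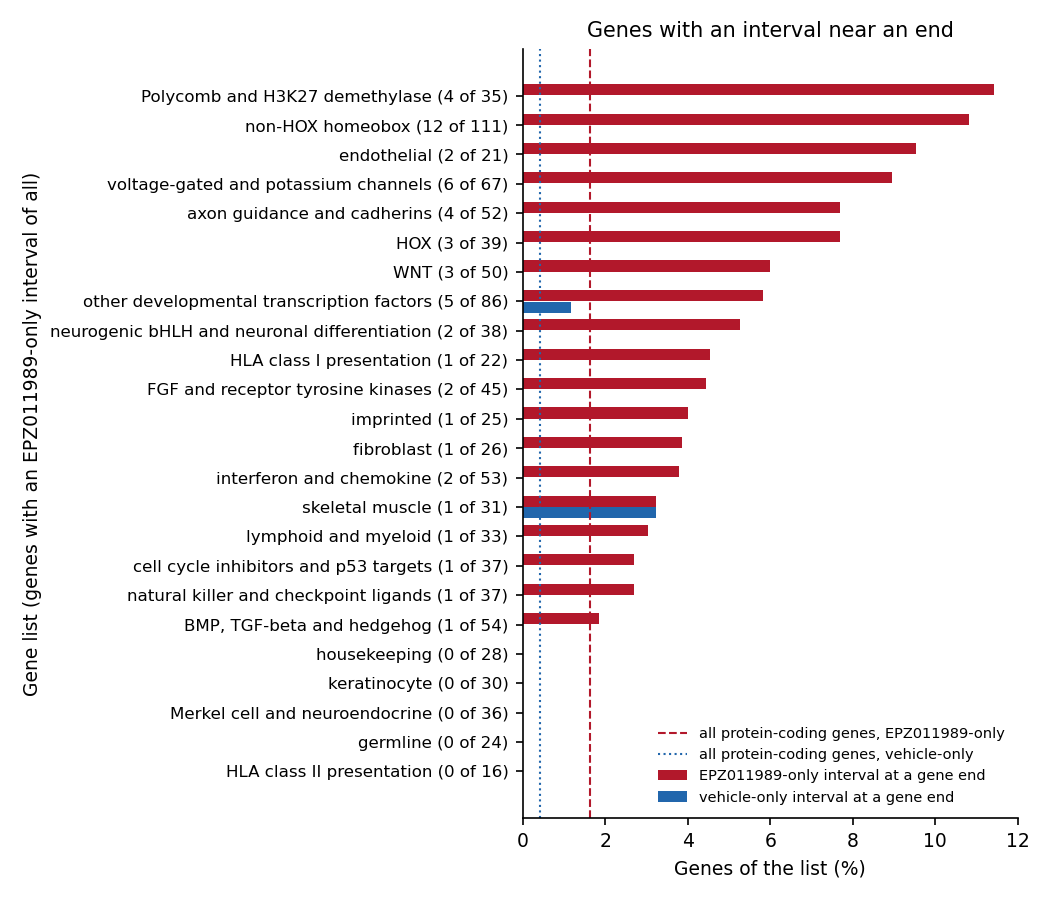
Percent of genes of each of 24 lists (y axis, with counts) that have an EPZ011989-only (red) or vehicle-only (blue) interval within 2500 bp of a gene end (x axis). Dashed and dotted lines mark the share of all protein-coding genes, 1.63% and 0.408%. Above the dashed line lie 19 lists, each with 1 to 12 genes, and 5 lists are at 0. In a list of 54 genes or fewer, 1 gene is enough to pass the dashed line. The lists were chosen with earlier results of these data known.

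Individual long intervals show how a call looks in both libraries. The RASGRP2 interval, 2230 bp at chr11:64743169-64745398, came from peaks of 3094 and 2230 bp, with summits of only 13 and 10 fragments, so it was long and low. Vehicle H3K27me3 covered all of it in both libraries, and the nearest vehicle H3K4me3 peak was 13939 bp away. SH3PXD2A had 44 and 19 fragments over 1448 bp, PLPPR3 57 and 22 over 1447 bp, YPEL4 23 and 19 over 1421 bp and RARG 30 and 18 over 1365 bp. These 5 intervals lay 1394 to 32191 bp from a vehicle peak, and all were apart. At GRIN1, an NMDA receptor subunit, 1474 bp with 25 and 9 fragments lay 244 bp outside the gene, and at EPS8L2, an actin regulator, 1610 bp with 30 and 15 lay inside it.

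Of the 12 longest intervals, 10 were covered and 11 apart, and 2 had no vehicle H3K27me3 at all. The longest of all, 3467 bp at chr4:42892510-42895976, was one of these 2. It lies over an end of GRXCR1, a gene of inner ear hair cells, and over the 7SK pseudogene RN7SKP82. Its peaks measured 4366 and 3467 bp, its summits 27 and 19 fragments, and the nearest vehicle H3K4me3 peak was 96705 bp away. The other was 1750 bp inside NHSL1, at chr6:138428689-138430438, with 24 and 16 fragments and 22939 bp to a vehicle peak. Another isolated uncovered interval, of 1180 bp at chr6:126766559-126767738, lay 283238 bp from the nearest protein-coding gene, CENPW, with 14 and 11 fragments and 350547 bp to a vehicle peak. Among the 12 longest uncovered intervals, those at POU2AF3 and COLCA1, UBASH3B, RAC3, CLUL1, TRIOBP, AHDC1 and MCC lay 49 to 481 bp from vehicle H3K4me3. Those nearest to MED24 and PCP4 lay 538 and 3351 bp from it.

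The 12 intervals with the best fold ranks were all beside vehicle peaks. At XKR7 the replicate 1 peak was 4530 bp long with 240 fragments and the replicate 2 peak that set the interval 383 bp with 10. TRIOBP, FDXR, RAC3, ROBO2, KLF3, ARHGAP21, POU3F3 and HOXA13 showed the same form, a replicate 1 peak of 4635 to 8455 bp over a replicate 2 peak of 320 to 1314 bp. At KCNG3 it was replicate 2 that held the longer peak, 3023 bp with 92 fragments. Of the 12, 4 were covered and 6 uncovered. Among apart intervals the highest summits were 73 fragments in replicate 1 and 39 in replicate 2. FBXO27, an F-box protein gene, came near both with 67 and 39 over 1116 covered bp.

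Vehicle H3K27me3 regions that held an interval were long. Peaks of the 2 vehicle libraries merged into 53388 regions with a median of 1207 bp. The 379 regions with an EPZ011989-only interval had a median of 15638 bp, and 155 of them (40.9%) reached 20 kb, against 2.62% of all regions. Longer regions have more room for an interval. Of the 379, 357 held 1 interval and 22 held 2 or more. The median interval in a region lay 4590.5 bp from its nearer edge, and 23 crossed an edge.

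The 3 regions with 3 intervals lay at NAT16, LMTK3 and SPATC1, and of the 19 with 2, those at POU3F3 and SMARCD3 held the most interval bases. The 44098 bp region chr7:101161079-101205176 held 3, all near NAT16 and one also near VGF, a neuropeptide precursor, with summits of 12 to 18 fragments in replicate 1 and 9 to 14 in replicate 2. The 27195 bp region chr19:48488046-48515240 at LMTK3, a kinase gene, held 3 with 18 to 32 and 9 to 15. Those at chr19:48510746-48511148 and chr19:48511521-48512201 lay under the same replicate 1 peak of 1722 bp. Another region of 79058 bp on chromosome 8 at SPATC1 and OPLAH held 3 with 12 to 19 and 10 to 11. The POU3F3 region, 46958 bp on chromosome 2, held 2 long intervals of 1300 and 1314 bp, both beside vehicle peaks near this gene of a neural POU factor. SMARCD3, a BAF complex subunit, had 2 in 72321 bp, and the one at its start site had 38 and 16 fragments.

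Intervals were found on all 22 autosomes. Chromosome 1 had 66, chromosome 19 had 59, of which 48 were covered, and chromosome 17 had 52. As a share of all shared EPZ011989 intervals, the range ran from 1.84% on chromosome 22, with 8, to 6.04% on chromosome 21, with 11. Chromosome 19 stood at 4.73%.

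H3K4me3 lists held 20532 to 23193 peaks on the autosomes, IgG lists 4 to 37. As a check of the labelled cells, all 12 measured Merkel cell and neuroendocrine markers had a H3K4me3 peak at an end in all 4 H3K4me3 libraries, none of 4 lymphoid markers had one in any, and 4 of 5 keratinocyte markers had none. Of 4 fibroblast markers, the collagen genes COL1A1 and COL1A2 had a peak at an end in all 4 libraries, PDGFRA in EPZ011989 replicate 1 alone and LUM in none. These markers are a short choice made with earlier results of these data known, and the longer gene lists were less clean. Both vehicle libraries had a H3K4me3 peak at an end of 32 of 36 Merkel cell and neuroendocrine genes. The same held for 5 of 30 keratinocyte, 11 of 26 fibroblast and 9 of 33 lymphoid and myeloid genes. Read totals were not analysed here.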

How the data were processed

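CUT&RUN peak lists of 12 MKL-1 libraries on hg38 were used. Peaks carry MACS2 columns; MACS2 2.1.1.20160309, Bowtie2 2.2.9, SAMtools 0.1.19 and FastQC are named per the submitters' processing notes. The tools' roles, the thresholds, control library, duplicate handling and any spike-in scaling are not given in the sources used here. The authors called peaks per library. Each deposited peak carries a fold, a ratio of pileup to background, a deposited −log10 p and −log10 q, and a score that the authors' software derives from −log10 q; the score was not used in any result.

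Overlaps of 1 bp or more counted, and intervals of 300 bp or more were kept. Fold was read as pileup plus 1 over background plus 1; the background per list was solved from its most frequent fold and −log10 p, as the library's own. Recovered in this way, summit fragments measure height at 1 base. True read depth is unknown, so peaks of low height are the least certain, and levels were not compared between libraries without scaling by this background. The interval routines and the solver were tested on simulated data, and recovered the known intervals in 20 of 20 draws and the background in 5 of 5 lists. Gene ends come from RefSeq GRCh38.p14, whose gene table gives no strand, and sequences and start sites from the RefSeq promoter table.

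Intervals named in the text are the 12 longest, the 12 with the best mean fold rank, the 3 longest of each H3K27me3 class by place, the 12 longest uncovered, those in the 5 H3K27me3 regions with most intervals (ties by interval bases), and those at genes of 24 lists. Members and lists were chosen with earlier results of these data known. FBXO27, the motif examples and the genes with another start site were chosen after their values were seen. Vehicle and EPZ011989 H3K27me3 cover was compared by an exact two-sided permutation test over 6 labellings. Alternatives changed length, q, vehicle peak width, distances, cover rule and libraries. Chromosome X was left out by the rule, and results at some genes are not reported here. Calculations ran in Python 3.11.15 with scipy 1.17.1, pandas 2.3.3 and numpy 2.4.6.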

Additional observations from a re-analysis of the deposited data

How the results depend on the processing

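Against 568 EPZ011989-only and 506 vehicle-only intervals, a minimum of 500 bp gave 232 and 114, and one of 200 bp gave 696 and 848. A −log10 q of 5 or more in all 4 H3K4me3 lists gave 495 and 297, and in the shared lists alone 242 and 130. Removal only by peaks in both libraries of the other treatment gave 1193 and 1763. Leaving out 1 library at a time gave 832 to 2913 and 605 to 2672; for the vehicle-only count the libraries that moved it most were vehicle replicate 1 (2672), vehicle replicate 2 (2112) and EPZ011989 replicate 1 (1651). These alternatives change the number of peaks that enter or remove an interval by construction. Depth-matched summit heights, chosen after seeing the data, gave 371 and 858 when applied to all 4 lists and 366 and 499 when applied to the shared lists.

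The share covered by vehicle H3K27me3 (65.7%) was 59.2% with a stricter q for H3K27me3, 79.2% with stricter q in all H3K4me3 lists, 77.6% and 77.9% with depth matching, and 27.1% to 68.3% with 1 library left out. The vehicle-only share was 3.03% to 7.04% in every alternative computed for it, all below the EPZ011989-only share under the same setting. The share at a gene end (59.2%) was 41.7% within 1000 bp, 73.2% within 5000 bp, 48.8% for protein-coding genes, 66.9% with stricter q, 65.5% and 65.3% with depth matching, and 39.3% to 56.4% with 1 library left out. The share within 1 kb of a vehicle H3K4me3 peak (25.4%) was 16.2% at 500 bp, 35.4% at 2500 bp, 15.8% for peaks in both vehicle libraries, 12.5% with stricter q, 21.0% and 21.6% with depth matching, and 21.5% to 25.4% with 1 library left out. The H3K27me3 difference of 226 kb kept its direction in all 8 alternatives and was 224 to 229 kb with 1 library left out. With only 361 and 22 H3K27me3 peaks under EPZ011989, that direction was all but fixed in advance, and the value nearly restates vehicle cover.

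Replicate numbers are shared by the treatments, but no label pairs them. Differences between replicates 1 and 2 in log2 summit height correlated between treatments with r = 0.0029 over 15593 shared regions, with no p since regions are not replicates. With the replicate block, where an interval is called within each number, 468 EPZ011989-only and 447 vehicle-only intervals were found; the block left the H3K27me3 difference at 226 kb, and its 4 sign arrangements allow no p under 0.5.

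With 2 libraries a group, no test here can pass 0.05. The lower background of the vehicle H3K4me3 lists bears most on the 160 apart intervals whose summits would fall below the lowest vehicle call, and the lower background of the EPZ011989 H3K27me3 libraries bears on every count of lost H3K27me3. Peak lists hold no signal below the call, so the level of either mark outside peaks was not measured. Gene ends without strand mix starts with finishes.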

Other observations

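On chromosome X, which the rule leaves out, 7 of 533 shared EPZ011989 intervals (1.31%) were off every vehicle peak, and 7 of 543 (1.29%) in the other direction.

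An interval of 515 bp at chr7:129775766-129776280 lay within 2500 bp of the microRNA genes MIR183 and MIR96, chosen here after its values were seen. Its summits were 12 and 8 fragments, its vehicle H3K27me3 cover 0 and 200 bp, and a vehicle H3K4me3 peak lay 1067 bp away. At PROK2, a secreted peptide gene also chosen after its values were seen, a covered interval of 737 bp held 2 divergent start sites with 55 CG in each window, with summits of 24 and 13 fragments and 30016 bp to a vehicle peak.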
